A study of Mus musculus with 12 samples.

Results

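The genes described here were *Nfe2l2*, which encodes the transcription factor NRF2, its repressor *Keap1* and 8 NRF2 target genes, *Hmox1*, *Nqo1*, *Gclc*, *Gclm*, *Txnrd1*, *Srxn1*, *Slc7a11* and *Gsr*. They were found by gene symbol in the deposited count and FPKM matrices, where all 10 were present among 24421 symbols. Where a symbol had more than 1 transcript, the one with the most counts over all libraries stood for the gene. KEAP1 holds NRF2 in the cytoplasm and delivers it to a ubiquitin ligase, so that NRF2 protein is short-lived in resting cells. Oxidants and electrophiles modify KEAP1, NRF2 accumulates, pairs with a small MAF protein in the nucleus and binds antioxidant response elements near genes for heme breakdown, quinone reduction, glutathione supply and the thioredoxin system. Because this control acts on the protein, the RNA of the target genes is commonly used as its readout, and in kidney the pathway is known for its response to oxidative stress at reperfusion.

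RNA-seq had been made from whole kidneys of C57BL/6 male mice at 6 weeks of age, 3 mice in each of 4 groups. WT mice and Tet2-/- mice, made to lack the methylcytosine dioxygenase TET2 and bred from Tet2+/- parents with a C57BL/6J background, were taken either without any operation (baseline) or after ischemia-reperfusion (IR). For IR the right kidney was clamped for 60 min, the left kidney was removed, and the right kidney was collected 24 h later. No sham-operated library was analysed here, so an IR effect below includes surgery and the loss of the other kidney.

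Between 51007366 and 107969888 counts were summed per library. *Tet2* RNA was not lower in the baseline libraries labelled Tet2-/- (9.24, 16.6 and 10.3 FPKM) than in the WT baseline libraries (9.15, 6.25 and 7.33 FPKM), and was 2.64, 3.20 and 1.76 against 9.34, 3.97 and 3.86 FPKM after IR. Genotypes are therefore given as labelled. Proximal tubule markers were high in all 12 libraries, with summed levels of 3945 to 4913 FPKM at baseline. WT baseline replicates 2 and 3 and labelled Tet2-/- IR replicate 3 stood apart by adipocyte markers, with *Adipoq* at 3.01, 15.6 and 10.01 FPKM and at most 0.273 FPKM elsewhere. That IR library also had the lowest summed markers of the 6 IR libraries for the thick ascending limb (390 FPKM against 1344 to 2627), the distal convoluted tubule (27.2 against 64.0 to 97.2) and the collecting duct (337 against 464 to 772). Calls of the 10 genes that changed without these libraries are given with both values. In whole kidney RNA, fewer cells of a type and less RNA per cell cannot be told apart.

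The antioxidant response element has the core TGACNNNGC or, with G in place of C, TGAGNNNGC, and both were searched on both strands before the transcript starts in the mm9 genome, the build of the files. Of 24203 transcript starts, 12.8% had TGACNNNGC and 18.3% had TGAGNNNGC between 250 bases before and 50 bases after the start, against 4 and 3 of the 10 genes. TGACNNNGC followed directly by A was in 2.87% of these windows, in 9.96% of windows from 1000 bases before to 100 after and in 38.6% from 5000 before to 100 after, against 1, 3 and 8 of the 10 genes. The form of this with TCA in the middle was in 3.03% of the widest windows and before *Hmox1* and *Gclc*. TGAGNNNGC was in 45.6% of windows from 1000 bases before to 100 after, against 4 of the 10 genes. The *Nqo1* match below lies in such a window and not in the narrowest one. The stretches below were chosen because each holds matches before one of the 8 target genes, with the matches in capitals on the strand of the gene (except for *Slc7a11*, capitals ending in TCA hold the core on the other strand). *Slc7a11* had no TGACNNNGC within the narrowest window and had TGAGNNNGC on the other strand, 97 to 89 bases before its start. Its stretch, which lies next to that match, shows instead TTGCATCA (TGATGCAA where it is on the other strand), the C/EBP-ATF response element that ATF4 binds, which was searched after the sequence was seen and was present in 0.826% of the narrowest windows. The windows depend on the transcript chosen. For *Txnrd1*, the 1 gene with TGACNNNGC and A in the narrowest window, the next transcript starts at 82323086, which leaves that match outside. A match describes letters and was not tested as a binding site.
Srxn1 (chr2:151931082-151931243, plus strand, 178 to 17 bases before the start, TGAGNNNGC): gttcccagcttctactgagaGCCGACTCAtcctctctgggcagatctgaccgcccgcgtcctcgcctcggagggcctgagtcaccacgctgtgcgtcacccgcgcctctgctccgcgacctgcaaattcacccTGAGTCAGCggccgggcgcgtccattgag
Txnrd1 (chr10:82321838-82321887, plus strand, 113 to 64 bases before the start, TGACNNNGC and A): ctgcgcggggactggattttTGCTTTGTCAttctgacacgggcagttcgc
Gclm (chr3:121948321-121948369, plus strand, 154 to 106 bases before the start, TGACNNNGC): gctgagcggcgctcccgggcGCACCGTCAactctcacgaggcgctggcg
Slc7a11 (chr3:50247555-50247621, minus strand, 86 to 20 bases before the start, TTGCATCA): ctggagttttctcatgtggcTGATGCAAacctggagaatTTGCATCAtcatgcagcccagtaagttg
Nqo1 (chr8:109927513-109927561, minus strand, 456 to 408 bases before the start, TGAGNNNGC): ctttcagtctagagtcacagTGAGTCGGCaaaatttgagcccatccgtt
Gsr (chr8:34762946-34762995, plus strand, 764 to 715 bases before the start, TGACNNNGC and A): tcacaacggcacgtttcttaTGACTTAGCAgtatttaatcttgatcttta
Gclc (chr9:77600304-77600353, plus strand, 2038 to 1989 bases before the start, TGACNNNGC and A with TCA in the middle): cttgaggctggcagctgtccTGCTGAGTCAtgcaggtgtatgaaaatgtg
Hmox1 (chr8:77613576-77613677, plus strand, 3941 to 3840 bases before the start, TGACNNNGC and A): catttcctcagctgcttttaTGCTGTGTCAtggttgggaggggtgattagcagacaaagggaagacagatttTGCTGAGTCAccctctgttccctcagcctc

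Levels are given as FPKM (reads scaled to transcript length and sequencing depth), in the order of replicates 1, 2 and 3 and then as mean ± SD. The log2 fold changes were fitted to the counts with edgeR's quasi-likelihood test, and calls needed both an adjusted p (Benjamini-Hochberg over all genes tested) under 0.05 and a fitted change of more than 1 on the log2 scale.

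**Figure D1:**
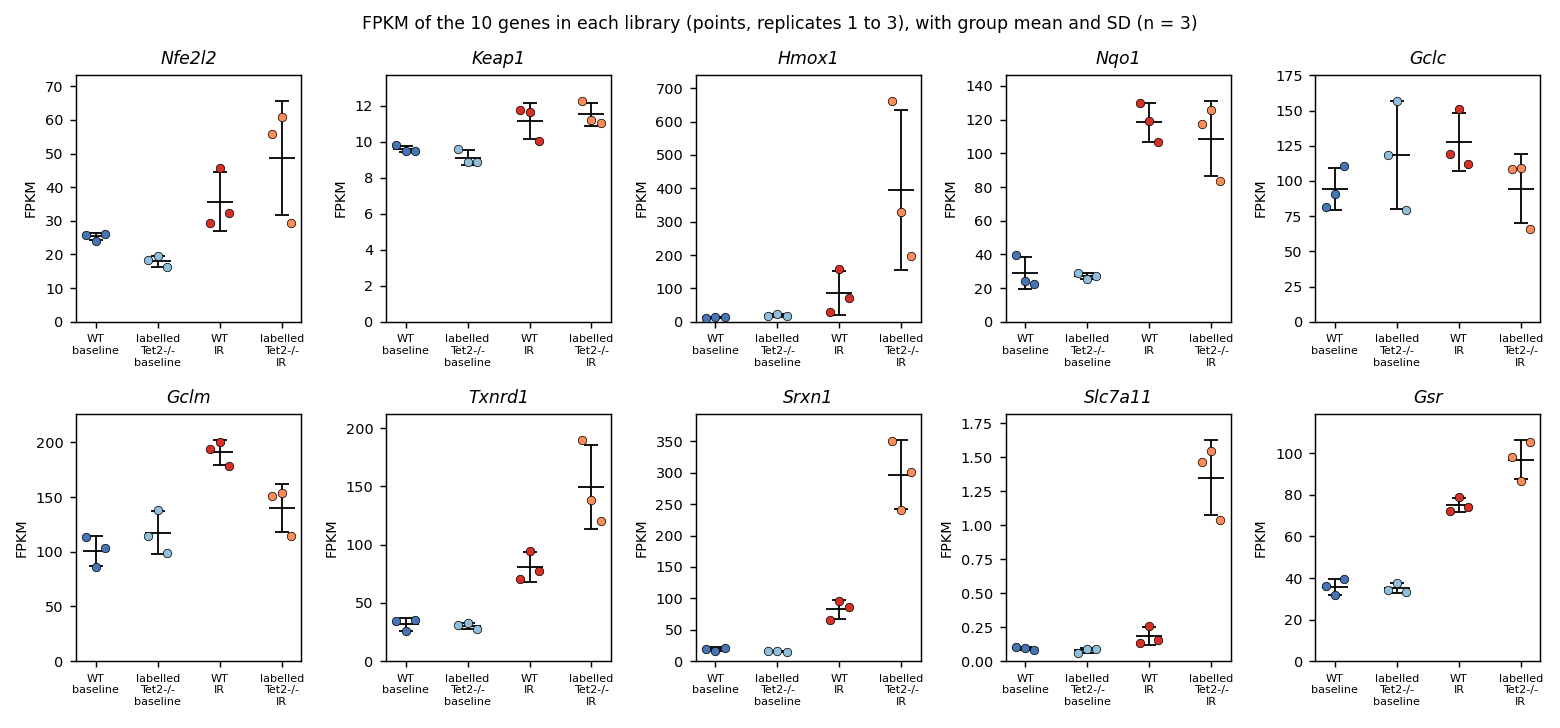
FPKM of the 10 genes in each of the 12 libraries (points, replicates 1 to 3 from left to right) with the mean and SD of each group (bars, n = 3). The axes start at 0 and differ between genes. *Hmox1*, *Srxn1*, *Slc7a11* and *Txnrd1* were highest in the IR libraries labelled Tet2-/-, *Nqo1* was raised to like levels in both IR groups (118 and 109 FPKM), and *Gclm* was highest in the WT IR libraries. For *Gclc* the WT IR group had the highest mean but overlapped with the baseline libraries labelled Tet2-/-.

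*Nfe2l2* lies on chromosome 2 from 75513570 to 75542720 on the minus strand of mm9. Its level was 25.9, 24.1 and 26.1 FPKM in WT baseline libraries and 18.4, 19.4 and 16.2 FPKM in baseline libraries labelled Tet2-/-. After IR it was 29.3, 45.6 and 32.3 FPKM in WT and 55.9, 60.8 and 29.2 FPKM in labelled Tet2-/- libraries. The libraries labelled Tet2-/- thus lay below WT at baseline without overlap and overlapped with WT after IR, where replicate 3, the library with adipocyte markers, was as low as the lowest WT library. The IR effect was 0.43 on the log2 scale in WT (SE 0.17, adjusted p = 0.199) and was not called there, and it was 1.16 in the libraries labelled Tet2-/- (SE 0.23, adjusted p = 0.00625), a called rise. A non-coding transcript of the gene, NR_132727, which shares the 5' exon and then ends in an exon of its own at 75529109 to 75530429 within the following intron, was counted separately. In WT it was 9.09, 8.62 and 4.16 FPKM at baseline and 3.22, 5.84 and 4.19 FPKM after IR, with a log2 difference of -0.78 that was not called (adjusted p = 0.233). Libraries labelled Tet2-/- had 9.16, 6.51 and 8.51 FPKM of it at baseline and 17.3, 8.06 and 13.3 FPKM after IR, a log2 difference of 0.44 (adjusted p = 0.27). Between genotypes after IR this transcript was called, at 1.47 higher on the log2 scale in the libraries labelled Tet2-/- (adjusted p = 0.0443).

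*Keap1*, on chromosome 9 from 21034174 to 21043776 on the minus strand, had the smallest fitted IR effect of the 10 genes in WT. Its level was 9.82, 9.52 and 9.51 FPKM in WT and 9.60, 8.86 and 8.90 FPKM in labelled Tet2-/- baseline libraries. After IR it was 11.8, 11.7 and 10.03 FPKM and 12.3, 11.2 and 11.1 FPKM. All IR libraries were above all baseline libraries in FPKM, but the fitted IR effects were 0.15 (SE 0.09, adjusted p = 0.386) in WT and 0.08 (SE 0.11, adjusted p = 0.566) in the libraries labelled Tet2-/-, with 95% intervals of -0.07 to 0.37 and -0.17 to 0.34. Its 4 transcripts share exons, and 510 of its exon bases lie opposite exons of the antisense RNA gene *Gm16754*. Whether the counting used the strand is not given in the sources used here.

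*Hmox1* encodes heme oxygenase 1, which cleaves heme to biliverdin, carbon monoxide and iron, and lies on chromosome 8 from 77617517 to 77624492 on the plus strand. It was 11.5, 14.7 and 12.9 FPKM in WT baseline libraries and 16.1, 24.2 and 16.2 FPKM in labelled Tet2-/- baseline libraries. After IR it was 28.5, 158 and 70.4 FPKM in WT and 662, 329 and 197 FPKM in libraries labelled Tet2-/-. No other gene of the 10 spread so widely within a group, and all 4 groups could be ranked without overlap. The group means after IR were 85.7 ± 66.1 and 396 ± 239 FPKM (SD, n = 3). The IR effect was 2.65 on the log2 scale in WT (SE 0.56), which was not called at an adjusted p of 0.0564, and 4.13 in the libraries labelled Tet2-/- (SE 0.46, adjusted p = 0.000586), a 17.5-fold rise. What the replicate number marks is not given, and baseline and IR libraries come from different mice. With that number as a block, the rise in WT was 2.34 and was called (adjusted p = 0.0177). Without WT IR replicate 1, the library with the lowest level, it was 3.07 and was called (adjusted p = 0.0108), and without WT IR replicate 2, the highest, it was 1.95 and was not (adjusted p = 0.109). The other 4 fits with 1 library left out made no call either (adjusted p = 0.121 to 0.186). Without labelled Tet2-/- IR replicate 1 the rise in the libraries labelled Tet2-/- was 3.51 (adjusted p = 0.000537).

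*Nqo1* encodes NAD(P)H quinone dehydrogenase 1, which reduces quinones to hydroquinones, and lies on chromosome 8 from 109912125 to 109927105 on the minus strand. Baseline levels were 39.8, 24.2 and 22.7 FPKM in WT and 29.0, 25.4 and 26.9 FPKM in labelled Tet2-/- libraries. After IR the levels were 130, 119 and 107 FPKM in WT and 117, 126 and 83.3 FPKM in libraries labelled Tet2-/-. Every IR library was above every baseline library, and the groups with the same treatment overlapped. The IR effect was 1.97 in WT (SE 0.23, adjusted p = 0.0108) and 1.74 in the libraries labelled Tet2-/- (SE 0.15, adjusted p = 0.000251), 3.92-fold and 3.33-fold. Leaving out WT baseline replicate 2 (adjusted p = 0.055) or 3 (0.0515) or WT IR replicate 2 (0.0505) ended the WT call, and without both WT baseline libraries with adipocyte markers the difference was 1.502 (adjusted p = 0.223).

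*Gclc* and *Gclm* encode the catalytic and modifier subunits of glutamate-cysteine ligase, the rate-limiting enzyme of glutathione synthesis. *Gclc*, on chromosome 9 from 77602342 to 77642296 on the plus strand, was 81.7, 90.6 and 110 FPKM in WT baseline, 119, 157 and 79.7 FPKM in labelled Tet2-/- baseline, 119, 151 and 112 FPKM in WT IR and 108, 109 and 66.1 FPKM in labelled Tet2-/- IR libraries. The WT IR libraries lay above the WT baseline libraries, whereas the labelled Tet2-/- IR libraries overlapped with their baseline. Neither IR effect was called, at 0.37 in WT (SE 0.18, adjusted p = 0.271) and -0.59 in the libraries labelled Tet2-/- (SE 0.28, adjusted p = 0.121).

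*Gclm*, on chromosome 3 from 121948475 to 121970133 on the plus strand, had the highest mean level of the 10 genes in WT baseline libraries (101 ± 13.6 FPKM, SD, n = 3), next to *Gclc* (94.2 ± 14.7 FPKM). It was 113, 86.3 and 103 FPKM in WT baseline, 114, 138 and 99.2 FPKM in labelled Tet2-/- baseline, 194, 200 and 179 FPKM in WT IR and 151, 154 and 115 FPKM in labelled Tet2-/- IR libraries. All WT IR libraries were above every other library. In WT the IR effect of 0.85 (SE 0.15, adjusted p = 0.0342) passed the adjusted p and stayed under the fold change limit, and each of the 6 libraries of that fit, when left out, took the adjusted p over the threshold (0.0511 to 0.113). In the libraries labelled Tet2-/- the fitted IR effect was -0.01 (SE 0.17, adjusted p = 0.974) with a 95% interval of -0.41 to 0.40, and its sign changed with the scaling (0.22 with library sizes alone). Of its exon bases, 296 lie opposite exons of the antisense RNA gene *Gm17494*.

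*Slc7a11* encodes xCT, the cystine importer that brings in cysteine for glutathione, and lies on chromosome 3 from 50168858 to 50247535 on the minus strand. Its level was the lowest of the 10 genes, at 0.104, 0.093 and 0.081 FPKM in WT baseline and 0.056, 0.091 and 0.088 FPKM in labelled Tet2-/- baseline libraries. It was 0.131, 0.258 and 0.157 FPKM in WT IR libraries and 1.47, 1.54 and 1.04 FPKM in labelled Tet2-/- IR libraries. The 3 labelled Tet2-/- IR libraries stood clear of the other 9, with 902 to 1833 counts against 39 to 206. The IR effect in WT was 0.91 (SE 0.32, adjusted p = 0.162), not called, and in the libraries labelled Tet2-/- it was 3.82 (SE 0.28, adjusted p = 0.000132), a 14.1-fold rise that still left the gene lowest of the 10 per length.

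*Gsr* encodes glutathione reductase, which returns oxidized glutathione to its reduced form with NADPH, and lies on chromosome 8 from 34763710 to 34808634 on the plus strand. It was 36.1, 31.7 and 39.3 FPKM in WT baseline, 34.4, 37.8 and 33.4 FPKM in labelled Tet2-/- baseline, 72.3, 79.0 and 74.0 FPKM in WT IR and 98.3, 86.9 and 106 FPKM in labelled Tet2-/- IR libraries. The baseline groups overlapped, and the labelled Tet2-/- IR libraries were above the WT IR libraries. The IR effect was 1.01 in WT (SE 0.14, adjusted p = 0.0183) and 1.21 in the libraries labelled Tet2-/- (SE 0.16, adjusted p = 0.0011). The WT value sits at the fold change limit, and the call was lost without any of WT baseline replicates 1, 2 and 3 and WT IR replicates 2 and 3 (log2 fold changes of 1.01, 0.95, 1.10, 1.03 and 0.97). The adjusted p in these fits was 0.0873, 0.0407, 0.0513, 0.0606 and 0.069. Only the fit without WT baseline replicate 2 thus lost the call by the fold change limit alone.

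*Txnrd1* encodes cytosolic thioredoxin reductase and lies on chromosome 10 from 82321951 to 82360469 on the plus strand. Its levels were 34.3, 25.4 and 35.3 FPKM in WT baseline, 31.2, 32.6 and 27.6 FPKM in labelled Tet2-/- baseline, 70.2, 94.8 and 77.2 FPKM in WT IR and 190, 138 and 121 FPKM in labelled Tet2-/- IR libraries. All 3 labelled Tet2-/- IR libraries were above the WT IR libraries, which were above all baseline libraries. The IR effect was 1.28 in WT (SE 0.19, adjusted p = 0.023) and 2.04 in the libraries labelled Tet2-/- (SE 0.20, adjusted p = 0.000392). Leaving out WT baseline replicate 1 (adjusted p = 0.0867) or 3 (0.0619) ended the WT call, as did leaving out WT IR replicate 2 (0.0707) or 3 (0.0758). Its 4 transcripts share most reads, and the next one gave like levels (33.1, 24.7 and 33.8 FPKM in WT baseline libraries).

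*Srxn1* encodes sulfiredoxin, which repairs over-oxidized peroxiredoxins, and lies on chromosome 2 from 151931260 to 151937112 on the plus strand. It was 19.5, 16.03 and 21.3 FPKM in WT baseline and 15.7, 15.8 and 14.9 FPKM in labelled Tet2-/- baseline libraries. After IR it was 65.7, 95.1 and 85.8 FPKM in WT and 350, 241 and 301 FPKM in libraries labelled Tet2-/-. The 4 groups did not overlap, and the labelled Tet2-/- group was the lowest at baseline and the highest after IR. The IR effect was 2.06 in WT (SE 0.20, adjusted p = 0.00842), a 4.16-fold rise called with any 1 of the 6 libraries left out, and 4.02 in the libraries labelled Tet2-/- (SE 0.23, adjusted p = 6.62e-05), a 16.2-fold rise.

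NRF2 target genes were called higher with IR in both genotypes, and none of the 10 genes was called lower in either. In WT 4 of the 10 genes were called and all 4 were higher, *Nqo1*, *Txnrd1*, *Srxn1* and *Gsr*, where 1.46% of 16015 genes tested were called higher and 0.887% lower. These 234 and 142 genes became 428 and 559 with the replicate number as a block. In FPKM all 10 genes were above baseline in every WT IR library, where 18.9% of the genes tested were. In the libraries labelled Tet2-/- 7 of the 10 were called and all 7 were higher, adding *Nfe2l2*, *Hmox1* and *Slc7a11*, where 12.7% of 16359 genes tested were called higher and 11.6% lower (2078 and 1896 genes, which became 2860 and 1397 with library sizes alone). Here 8 of the 10 were above baseline without overlap in FPKM, against 40.5% of the genes tested. The median IR effect of the 10 genes was 0.96 in WT and 1.47 in the libraries labelled Tet2-/-, beside medians over all genes tested of -0.03 and 0.04.

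The WT count was the less stable of the pair. With 1 library left out it ranged from 1 (*Srxn1*, without WT baseline replicate 3 or WT IR replicate 2) to 5 (without WT IR replicate 1, which had the lowest injury markers), and it was 2 without WT baseline replicate 1 or 2 or WT IR replicate 3. Without both WT baseline libraries with adipocyte markers, which leaves a lone baseline library assumed to vary like the others, it was 0, with *Srxn1* at 2.01 (adjusted p = 0.261), *Txnrd1* at 1.16 (0.294) and *Gsr* at 0.99 (0.284). The 7 calls in the libraries labelled Tet2-/- were made with any 1 of the 6 libraries left out.

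**Figure D2:**
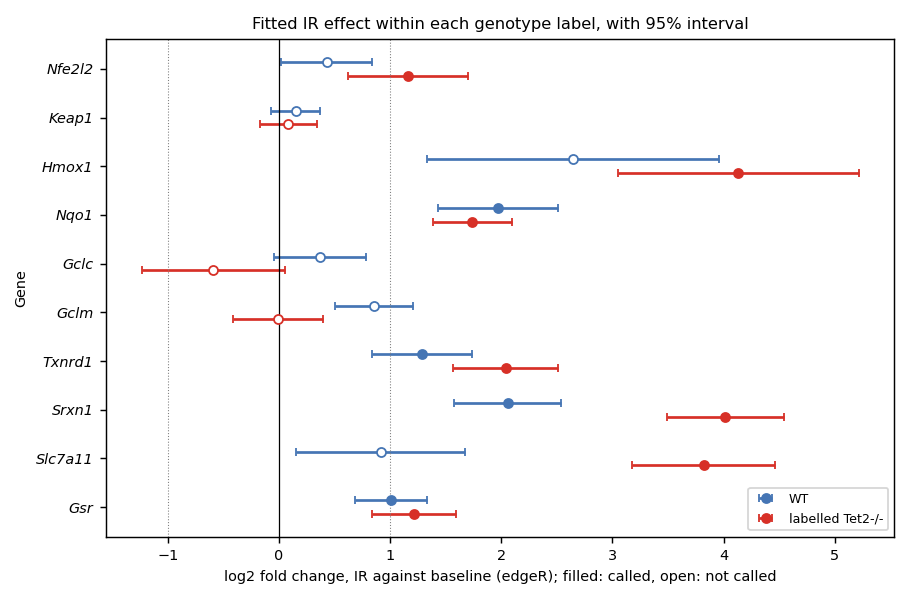
Fitted log2 fold change, IR against baseline, of the 10 genes (points) with 95% intervals (bars), in WT (blue) and in libraries labelled Tet2-/- (red). Filled points were called, and dotted lines mark a change of 1 in either direction. *Nqo1* and *Gsr* had overlapping intervals in both genotypes, while *Srxn1* and *Slc7a11* (higher in the libraries labelled Tet2-/-) and *Gclm* (higher in WT) had intervals that did not overlap.

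At baseline the question was whether the pathway differed between the genotypes before injury. None of the 10 genes was called between the labelled Tet2-/- and the WT baseline libraries by edgeR, DESeq2 or limma, where 0.0124% of 16086 genes tested were called by edgeR. *Nfe2l2* (-0.41, SE 0.10, unadjusted p = 0.00537, adjusted p = 0.253) and *Hmox1* (0.62, SE 0.19, unadjusted p = 0.0127, adjusted p = 0.311) were the 2 of the 10 genes with an unadjusted p under 0.05. Of the 16086 genes tested, 1891 had such a p. In FPKM the labelled Tet2-/- libraries were all above WT for *Hmox1*, where 3.06% of genes tested were, and all below for *Nfe2l2* and *Srxn1*, where 16.5% were. The fitted difference of *Srxn1* was -0.20 (SE 0.13, adjusted p = 0.527). For *Nqo1* it was 0.00 with a 95% interval of -0.49 to 0.49 and for *Gclc* 0.41 with an interval of -0.16 to 0.99, so a change of 1 on the log2 scale lay outside the interval for both.

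After IR, *Slc7a11* and *Srxn1* were higher in the libraries labelled Tet2-/- than in WT. *Slc7a11* was higher by 2.79 on the log2 scale (SE 0.30, adjusted p = 0.0104), which is 6.90-fold, and *Srxn1* by 1.76 (SE 0.25, adjusted p = 0.0139), which is 3.39-fold. These 2 of the 10 genes were the ones called, where 2.3% of 16186 genes tested were called higher and 3.85% lower. In FPKM the labelled Tet2-/- IR libraries were above WT IR without overlap for 5 genes (*Hmox1*, *Txnrd1*, *Srxn1*, *Slc7a11* and *Gsr*), where 22% of genes tested were, and below for 2 (*Gclc* and *Gclm*), where 14.6% were. *Hmox1* had a fitted difference of 2.12 (SE 0.66, adjusted p = 0.088), which was 1.51 without labelled Tet2-/- IR replicate 1 and 2.81 without WT IR replicate 2 (adjusted p = 0.214 and 0.0635). *Txnrd1* had a difference of 0.79 (SE 0.22, adjusted p = 0.0671) and *Gsr* of 0.28 (SE 0.17, adjusted p = 0.319). For the ligase subunits it was -0.55 for *Gclm* (SE 0.15, adjusted p = 0.0662) and -0.54 for *Gclc* (SE 0.21, adjusted p = 0.149). *Nqo1* had a difference of -0.23 with a 95% interval of -0.60 to 0.14, and *Keap1* of -0.05 with an interval of -0.31 to 0.22. *Srxn1* lost its call without WT IR replicate 1 (1.61, adjusted p = 0.0521).

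**Figure D3:**
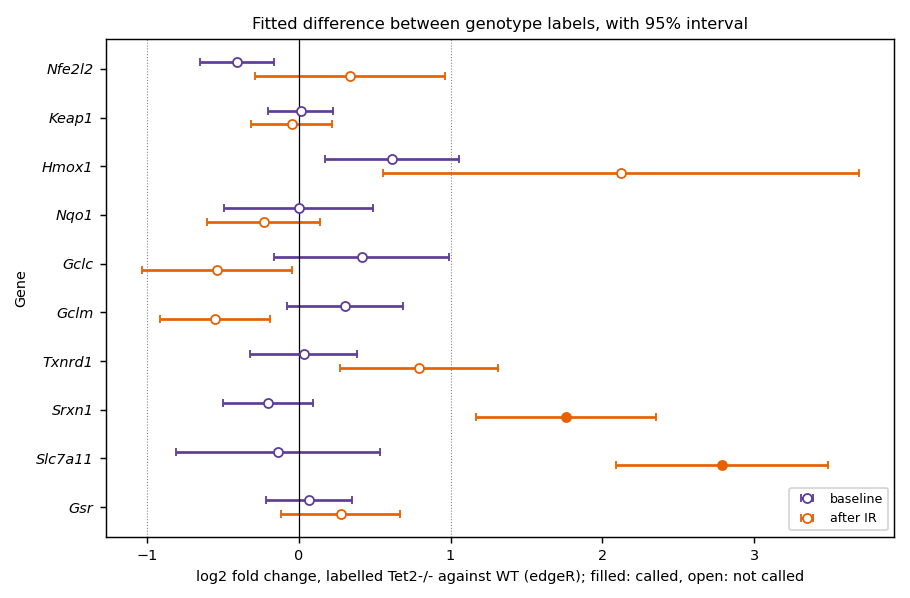
Fitted log2 fold change, labelled Tet2-/- against WT, of the 10 genes (points) with 95% intervals (bars), at baseline (purple) and after IR (orange). Filled points were called, and dotted lines mark a change of 1 in either direction. *Srxn1* (1.76) and *Slc7a11* (2.79) were called after IR, and the interval of *Hmox1* after IR was the widest (0.56 to 3.69).

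Whether the IR effect itself differed between the genotypes was tested with an interaction term in a fit of all 12 libraries, where calls needed only the adjusted p. The IR effect of *Slc7a11* was larger in the libraries labelled Tet2-/- by 2.95 (SE 0.40, adjusted p = 0.00381) and that of *Srxn1* by 2.003 (SE 0.29, adjusted p = 0.00451), a further 4.01-fold. The IR effect of *Gclm* was smaller by a log2 difference of -0.82 (SE 0.23, adjusted p = 0.0443). These were 3 of the 10 genes, where 3.79% of 16741 genes tested were called as larger and 5.39% as smaller. The balance over all genes turned with the scaling, from 634 larger and 902 smaller to 1129 and 700 with library sizes alone. The other estimates were 1.53 for *Hmox1* (95% interval -0.11 to 3.18, adjusted p = 0.214), 0.80 for *Txnrd1* (0.17 to 1.42, 0.1), 0.77 for *Nfe2l2* (0.09 to 1.45, 0.135), 0.25 for *Gsr* (-0.21 to 0.70, 0.481) and -0.92 for *Gclc* (-1.69 to -0.15, 0.119). For *Nqo1* the interval was -0.80 to 0.42 around -0.19 (adjusted p = 0.693), and for *Keap1* it was -0.32 to 0.27 around -0.03 (adjusted p = 0.926). The estimate of *Hmox1* was 0.90 without labelled Tet2-/- IR replicate 1 and 2.25 without WT IR replicate 2 (adjusted p = 0.46 and 0.0549).

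The calls of *Slc7a11* and *Srxn1* were made with any 1 of the 12 libraries left out, and without both WT baseline libraries with adipocyte markers they were 3.08 and 1.99 (adjusted p = 0.0683 for each), and *Gclm* was -0.71 (adjusted p = 0.229). Without all 3 such libraries, a choice made after the data were seen, they were 3.20 and 1.94 (adjusted p = 0.0731 for each), and *Gclm* was -0.62 (adjusted p = 0.217). The call of *Gclm* was made in 2 of the 12 fits with 1 library left out, those without labelled Tet2-/- baseline replicate 3 or labelled Tet2-/- IR replicate 2, and the adjusted p over these 12 fits was 0.0441 to 0.0904. *Nfe2l2* was called without labelled Tet2-/- IR replicate 3 (1.004, adjusted p = 0.0239).

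Other readouts of injury were compared between the IR groups. Summed FPKM of 7 tubular injury markers was 1647 to 7849 in WT IR and 11972 to 25907 in labelled Tet2-/- IR libraries, against 219 to 515 over both baseline groups. None of the 7 was called between genotypes after IR by edgeR. In FPKM 5 of them were above WT IR without overlap, where 22% of genes tested were. Proximal tubule markers summed to 2632 to 3431 FPKM in WT IR and 879 to 1541 FPKM in labelled Tet2-/- IR libraries. The sum of 8 neutrophil markers was 4.03 to 9.46 FPKM in WT IR libraries, where *Ly6g*, *Cxcr2*, *Mmp8* and *Stfa2l1* were at most 0.1 FPKM, and 76.7 to 135 FPKM in labelled Tet2-/- IR libraries. Macrophage markers summed to 33.4 to 67.6 and 62.4 to 227 FPKM, ranges that overlap, with the highest value in labelled Tet2-/- IR replicate 2. Of these 10 markers, 2 were called higher in the libraries labelled Tet2-/-, where 2.3% of genes tested were. Within WT IR, replicate 1 had the lowest *Havcr1* (214 FPKM), *Lcn2* (74.2 FPKM), *Hmox1* (28.5 FPKM) and *Srxn1* (65.7 FPKM) and the highest *Nqo1* (130 FPKM). Replicate 2 had the highest *Lcn2* (476 FPKM), *Hmox1* (158 FPKM) and *Srxn1* (95.1 FPKM). Among labelled Tet2-/- IR libraries, replicate 1 had the highest *Hmox1* (662 FPKM), *Lcn2* (1923 FPKM) and *S100a8* (47.2 FPKM) and the lowest *Havcr1* (652 FPKM). The part of injury severity or of infiltrating cells in the genotype differences was not tested.

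**Figure D4:**
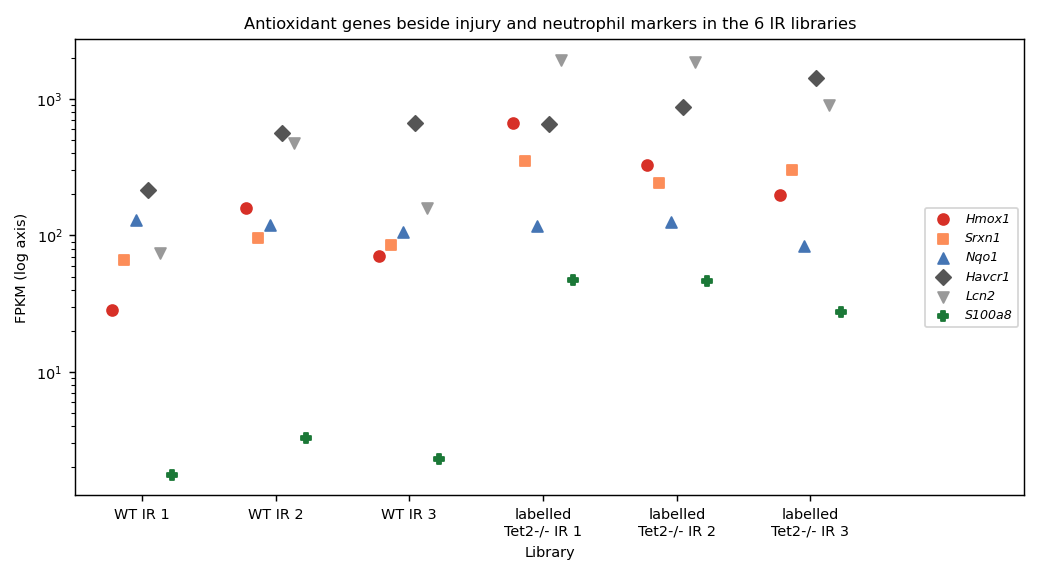
FPKM on a log axis of *Hmox1*, *Srxn1* and *Nqo1* beside the tubular injury markers *Havcr1* and *Lcn2* and the neutrophil marker *S100a8* in the 6 IR libraries (1 point per gene and library). *Nqo1* stayed between 83.3 and 130 FPKM in all 6, whereas *S100a8* was 1.77 to 3.29 FPKM in WT IR and 27.4 to 47.2 FPKM in labelled Tet2-/- IR libraries.

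Around the 10 genes, 7 lists of related genes were read in the same fits. Without both WT baseline libraries with adipocyte markers, no gene of the 7 lists kept a call with IR in WT or for the interaction, in fits that leave 1 WT baseline library. The interaction calls were also lost without all 3 libraries with adipocyte markers. Superoxide dismutases, which turn superoxide into hydrogen peroxide, and catalase, which breaks hydrogen peroxide down, form the smallest of them. All 4 genes of this list (*Sod1*, *Sod2*, *Sod3* and *Cat*) were called lower with IR in the libraries labelled Tet2-/-, where 11.6% of genes tested were, with a median of -1.40, while none of the 4 was called in WT (edgeR). *Sod3*, the extracellular superoxide dismutase, fell from 278 ± 23.3 to 108 ± 15.4 FPKM (SD, n = 3; log2 fold change -1.60, SE 0.19, adjusted p = 0.000715), and *Sod1*, the cytosolic enzyme, fell from 952 ± 118 to 411 ± 107 FPKM (-1.45, SE 0.26, adjusted p = 0.00378). Between genotypes after IR, *Sod3* was lower by -1.29 (SE 0.20, adjusted p = 0.0163) and *Cat*, catalase of peroxisomes, by -1.15 (SE 0.24, adjusted p = 0.0312). These were 2 of the 4, where 3.85% of genes tested were called lower. The interaction was -1.68 for *Sod3* (adjusted p = 0.00381) and -1.34 for *Cat* (adjusted p = 0.0186), 2 of the 3 genes of this list called as smaller, where 5.39% of genes tested were. Both were called with any 1 of 12 libraries left out, and neither without both WT baseline libraries with adipocyte markers (-1.77 and -1.17, adjusted p = 0.0683 and 0.165). The genotype call after IR of *Cat* held in 1 of 6 such fits (without WT IR replicate 2, adjusted p = 0.0448 to 0.108 over the 6) and that of *Sod3* in 3 of 6 (lost without WT IR replicate 1 or 3 or labelled Tet2-/- IR replicate 1, adjusted p = 0.0597, 0.0531 and 0.0563).

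NADPH is the reductant of NQO1, glutathione reductase and thioredoxin reductase. A list of 6 genes around its supply was read (*G6pdx*, *Pgd*, *Taldo1*, *Tkt*, *Me1* and *Idh1*), not all of which encode enzymes that make NADPH. In WT, 1 was called higher with IR, *Pgd* of the pentose phosphate pathway (29.8 ± 1.10 to 75.5 ± 20.8 FPKM, 1.28, SE 0.20, adjusted p = 0.0277), a call held in 1 of 6 fits with 1 library left out (that without WT IR replicate 1) and lost without both WT baseline libraries with adipocyte markers (1.29, adjusted p = 0.348). Over all genes tested in WT, 1.46% were called higher. In the libraries labelled Tet2-/- 3 of the 6 were called higher and 1 lower, where 12.7% and 11.6% of genes tested were. *Pgd* rose by 1.76 (SE 0.24, adjusted p = 0.00126) and *G6pdx*, which opens the same pathway, by 1.46 (SE 0.17, adjusted p = 0.000601), whereas *Me1*, malic enzyme, fell from 121 ± 23.7 to 54.4 ± 9.27 FPKM (-1.40, SE 0.23, adjusted p = 0.00277). The list's median was 0.68 in WT and 0.98 in the libraries labelled Tet2-/-.

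The list of phase II conjugation and export held 26 tested genes, of which 6 were called higher and 0 lower in WT, where 1.46% and 0.887% of genes tested were. In the libraries labelled Tet2-/- 11 were called higher and 8 lower, against 12.7% and 11.6%. The list's medians were 0.32 and 0.64. *Gsta1*, an alpha class glutathione transferase, rose from 0.141 ± 0.150 to 4.78 ± 0.872 FPKM in WT (5.04, SE 0.74, adjusted p = 0.0224) and from 0.115 ± 0.0232 to 24.03 ± 12.3 FPKM in the libraries labelled Tet2-/- (7.51, SE 0.54, adjusted p = 0.00013). *Gsta2* rose in WT from 10.5 ± 6.55 to 100 ± 4.23 FPKM (3.20, SE 0.44, adjusted p = 0.0186). The alpha class genes are near-identical in parts, so reads could be split between them. *Akr1b8*, an aldo-keto reductase, rose in the libraries labelled Tet2-/- from 0.890 ± 0.244 to 35.1 ± 6.22 FPKM (5.05, SE 0.25, adjusted p = 4.78e-05), with an interaction of 3.17 (adjusted p = 0.00692) that was 2.56 and not called without both WT baseline libraries with adipocyte markers (adjusted p = 0.0909). Lower there were *Gstm3* (1.44 ± 0.273 to 0.671 ± 0.207 FPKM, -1.38, adjusted p = 0.0105) and *Ces1g*, a carboxylesterase (2.21 ± 2.73 to 0.383 ± 0.0194 FPKM, -2.81, adjusted p = 0.0333), whose change was -0.98 and not called without labelled Tet2-/- baseline replicate 3 (adjusted p = 0.0828). The call of *Ces1g* was also lost without any 1 of the 3 labelled Tet2-/- IR libraries (adjusted p = 0.069 to 0.0868).

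Between genotypes after IR, this list had 2 genes called higher, *Gsta1* (2.22, SE 0.41, adjusted p = 0.0234) and *Akr1b8* (1.66, SE 0.38, adjusted p = 0.0406), and 2 called lower, *Gsta3* (60.4 ± 14.6 to 27.9 ± 5.88 FPKM, -1.21, SE 0.19, adjusted p = 0.0175) and *Gstm1* (613 ± 152 to 286 ± 89.9 FPKM, -1.20, SE 0.25, adjusted p = 0.0329), where 2.3% and 3.85% of genes tested were. With 1 library left out, *Gsta3* was called in 5 of 6 fits (0.0534 without labelled Tet2-/- IR replicate 1), *Gsta1* in 2 (those without WT IR replicate 2 or labelled Tet2-/- IR replicate 1), *Akr1b8* in 1 (that without WT IR replicate 3) and *Gstm1* in 1 (that without labelled Tet2-/- IR replicate 2). The call of *Gstm1* was also lost with library sizes alone (-1.10, adjusted p = 0.056) and with limma (0.0705 and 0.063 with pseudocounts of 1 and 0.1). The WT calls with IR of *Gsta1* and *Gsta2* were lost without WT baseline replicate 3 (adjusted p = 0.072 and 0.0769), WT IR replicate 2 (0.0785 and 0.0665) or WT IR replicate 3 (0.0522 for each), and that of *Gsta1* also without WT baseline replicate 2 (0.0655). Without WT baseline replicate 1 the changes were 6.50 and 3.81, both called (adjusted p = 0.0223 for each). Without both of the WT baseline libraries with adipocyte markers they were 3.81 and 2.43 (adjusted p = 0.223 and 0.136).

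Genes that use or recycle glutathione were called in both directions. Of 16 tested in WT, 1 was higher and 1 lower, where 1.46% and 0.887% of genes tested were. Of 15 tested in the libraries labelled Tet2-/-, 4 were higher and 4 lower, where 12.7% and 11.6% were, and the list's medians were 0.13 and 0.19. *Mgst1*, a microsomal glutathione transferase, rose from 29.0 ± 6.77 to 149 ± 21.7 FPKM in WT (2.31, SE 0.24, adjusted p = 0.00964) and from 21.2 ± 1.38 to 167 ± 59.3 FPKM in the libraries labelled Tet2-/- (2.74, SE 0.30, adjusted p = 0.000558). *Ggct*, gamma-glutamylcyclotransferase, which breaks glutathione derivatives down, fell from 28.1 ± 7.68 to 9.81 ± 1.62 FPKM (-1.57, SE 0.26, adjusted p = 0.0304) and from 27.0 ± 2.27 to 8.20 ± 0.979 FPKM (-1.98, SE 0.15, adjusted p = 0.000144). Its WT call was lost without WT baseline replicate 2 (0.0793) or 3 (0.0826) or WT IR replicate 2 (0.11) or 3 (0.0527). Without both WT baseline libraries with adipocyte markers, *Mgst1* was 2.09 (adjusted p = 0.261) and *Ggct* -1.04 (adjusted p = 0.348) in WT. *Gsto1*, an omega class glutathione transferase, rose by 1.78 (SE 0.23, adjusted p = 0.001) and *Ggt1*, the brush border gamma-glutamyltransferase, fell from 727 ± 16.9 to 264 ± 15.3 FPKM (-1.72, SE 0.19, adjusted p = 0.000595) in the libraries labelled Tet2-/-.

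Of 14 thioredoxin and peroxiredoxin genes, 0 were called in WT by edgeR and 1 was called higher and 2 lower in the libraries labelled Tet2-/-, with medians of -0.11 and -0.25. The latter counts are near the shares of all genes tested, 12.7% higher and 11.6% lower. *Prdx5*, a peroxiredoxin, fell there from 2091 ± 105 to 1036 ± 220 FPKM (-1.26, SE 0.25, adjusted p = 0.00574), *Sesn1* from 5.37 ± 0.886 to 2.63 ± 0.428 FPKM (-1.30, SE 0.18, adjusted p = 0.00117), and *Sesn3* rose from 0.870 ± 0.170 to 3.51 ± 0.952 FPKM (1.75, SE 0.26, adjusted p = 0.0017). Both sestrins are stress-induced proteins. Of the regulators and partners of NRF2, 0 of 13 tested were called in WT by edgeR and 2 of 14 were called higher in the libraries labelled Tet2-/-, near the 12.7% of all genes tested. The medians were -0.05 and 0.43. One was *Maff*, a small MAF gene (1.996 ± 0.636 to 20.9 ± 4.44 FPKM, 3.14, SE 0.27, adjusted p = 0.000234). Of 10 genes of heme and iron handling, 0 were called in WT by edgeR and 3 were called higher in the libraries labelled Tet2-/-, where 12.7% of genes tested were, with medians of 0.06 and 0.56. Among them, *Blvrb*, a biliverdin reductase that acts after heme oxygenase, rose from 22.9 ± 3.73 to 68.8 ± 6.88 FPKM (1.33, SE 0.17, adjusted p = 0.000959). *Hp*, haptoglobin, which binds free hemoglobin, was 3.70 to 249 FPKM there, with the highest value in the library with adipocyte markers, and its change of 8.57 (adjusted p = 0.0112) was 4.28 without that library (adjusted p = 0.00123).

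**Figure D5:**
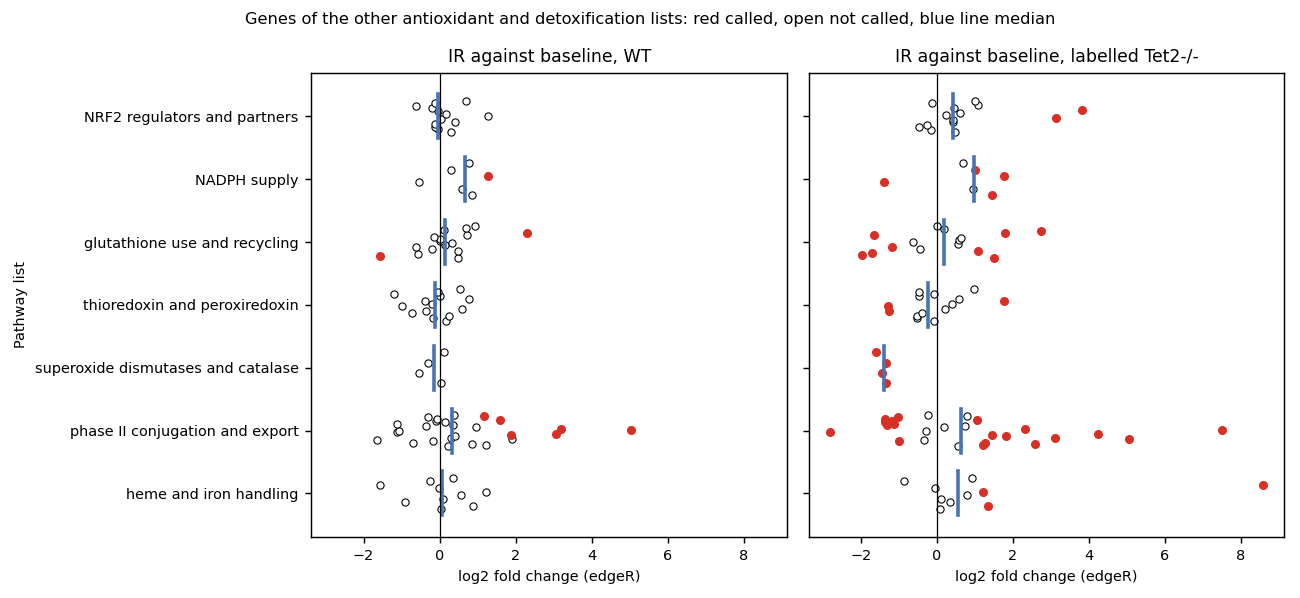
Fitted log2 fold change, IR against baseline, of each tested gene of 7 lists related to the NRF2 pathway (points) in WT (left) and in libraries labelled Tet2-/- (right). Red points were called, open points were not, and blue lines are the list medians. The superoxide dismutases and catalase lay on the lower side in the libraries labelled Tet2-/- (median -1.40), and phase II genes spread widely in both directions.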

How the data were processed

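Whole kidney RNA-seq of 12 mice in 4 groups of 3 was analysed, with groups and replicate numbers taken from the sample titles and each library treated as 1 mouse, as the study describes. According to the study's methods, the authors used STAR for alignment to mm9 and HOMER for counting over RefSeq transcripts (versions not given in the sources used here), and deposited these estimated counts without normalization. The authors also deposited FPKM of the same transcripts. Of the deposited counts, 38.7% were not whole, in steps of 0.5, so they were rounded, as the planned design provided. The files hold 34600 transcripts, and for the 5569 symbols with several the one with the highest total was used.

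Each comparison used its own 6 libraries in R 4.3.3 with edgeR 4.0.16 (TMM, its standard filter for low counts, quasi-likelihood test, Benjamini-Hochberg adjustment), and the interaction used all 12. All 10 genes passed the filter in every comparison. Standard errors were taken as the log2 fold change divided by the square root of the F statistic, and 95% intervals from these and the test's degrees of freedom. The tests were tested on simulated data with known changes. Alternatives were DESeq2 1.42.0, limma 3.58.1 on log2(FPKM + 1) and log2(FPKM + 0.1), TMM exchanged for library sizes alone or for the upper quartile, the filter dropped or set at a mean FPKM of 1, a single fit of all libraries, the replicate number as a block, the next transcript of a gene, no fold change threshold, and libraries left out. Same-numbered WT baseline and IR libraries deviated together from their group means (correlations over genes of 0.377, 0.349 and 0.369), although they come from different mice. Between labelled Tet2-/- baseline and IR libraries these correlations were 0.0961, 0.333 and 0.265. What the number marks is not given, so the block is an alternative and not a known pairing. No 2 libraries were duplicates (at most 0.258% of counts over 20 were equal).

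The 10 genes, the 7 pathway lists (92 genes), the marker lists and the comparisons were chosen with earlier results of these data known. The text names the 10 genes, *Tet2*, and from each pathway list and comparison of 2 groups up to 2 genes in each direction with the largest called change, no overlap between the groups and 1 group or both at a mean FPKM of 1 or more. Motifs were searched in the mm9 genome, and matplotlib 3.10.9 (Python 3.11.15) drew the figures.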

Additional observations from a re-analysis of the deposited data

Results flagged for a closer look

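The following genes had an IR effect that differed between the genotype labels by the test of the interaction itself. Among the NRF2 genes, the differences on the log2 scale were 2.95 for *Slc7a11*, 2.003 for *Srxn1* and -0.82 for *Gclm*. *Tet2* itself had an interaction of -2.001 (adjusted p = 0.0285, edgeR). This call was lost without WT baseline replicate 2 or 3, labelled Tet2-/- baseline replicate 2 or labelled Tet2-/- IR replicate 1 (adjusted p = 0.056, 0.0577, 0.0584 and 0.0527). Of the named list genes, *Akr1b8* (3.17) and *Hp* (10.16, adjusted p = 0.0217) had the higher IR effect in the libraries labelled Tet2-/-. *Sod3* (-1.68), *Gstm1* (-1.62, adjusted p = 0.0198), *Gstm3* (-1.49, adjusted p = 0.041), *Cat* (-1.34) and *Ggt1* (-1.11, adjusted p = 0.0283) had the lower one. None of these list genes was called without both WT baseline libraries with adipocyte markers or without all 3 libraries with adipocyte markers. Without all 3, *Akr1b8* was 2.44 (adjusted p = 0.101), *Hp* 2.96 (0.147), *Sod3* -1.94 (0.067), *Gstm1* -1.24 (0.148), *Gstm3* -1.30 (0.188), *Cat* -1.12 (0.159) and *Ggt1* -1.33 (0.0797), and *Tet2* was -1.62 (0.219). With 1 library left out, *Hp* was called in 8 of 12 fits, with values of 5.87 to 10.89 (the lowest without labelled Tet2-/- IR replicate 3) and the call lost without labelled Tet2-/- baseline replicate 2 or 3 or WT IR replicate 1 or 3, *Gstm1* was called in 11 of 12 fits (not without WT IR replicate 1, adjusted p = 0.0516), *Ggt1* in 6 of 12 and *Gstm3* in 2 of 12.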

How the results depend on the processing

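None of the 10 genes was called at baseline under any alternative run. The 7 calls of the IR effect in libraries labelled Tet2-/- became 6 with a mean FPKM of at least 1 (without *Slc7a11*) and with the next transcript (without *Nfe2l2*), and numbered 7 under the other alternatives. After IR, the genotype count of 2 became 1 with a mean FPKM of at least 1 (which removes *Slc7a11*) or limma on log2(FPKM + 1), and was 1 to 2 with 1 library left out. The WT count of 4 was 1 to 5 with 1 library left out and 0 without both WT baseline libraries with adipocyte markers, where 1 gene in all was called instead of 376. The interaction count of 3 was 2 to 3 with 1 library left out, and 0 without those 2 libraries or without all 3 with adipocyte markers (10 and 3 genes in all instead of 1536). Leaving out both baseline libraries leaves 1 library in that group. *Gclm* lost its interaction call with library sizes alone, no filter and limma, while library sizes alone and limma on log2(FPKM + 0.1) added *Txnrd1* (0.93 and 0.92, adjusted p = 0.0494 and 0.0481), and DESeq2 added *Gclc* (-0.97, adjusted p = 0.0382). DESeq2 and the single fit of all libraries added *Hmox1* to the genotype calls after IR (2.12 in both, adjusted p = 0.00308 and 0.0216), and these fits and no filter added it to the WT calls (adjusted p = 3.96e-06, 0.0212 and 0.0468). The upper quartile and the FPKM filter put *Gsr* in WT under the fold change limit (0.98 and 0.99).

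Some directions turned, all of values that were not called. At baseline, *Keap1* was -0.056 with library sizes alone, -0.0011 with the FPKM filter, -0.070 and -0.076 with limma (pseudocounts 1 and 0.1), -0.017 in the single fit and -0.0089 without both adipocyte libraries. In the same order *Nqo1* was -0.073, -0.015, -0.047, -0.047, -0.032 and -0.46, and it was -0.0024 with the upper quartile and -0.0013 with no filter. *Txnrd1* was -0.033 with library sizes alone, -0.043 and -0.044 with limma and -0.071 without both adipocyte libraries, and *Gsr* was -0.018 with either limma fit. *Keap1* was 0.051, 0.044 and 0.048 after IR and 0.11, 0.11 and 0.12 for the interaction with library sizes alone and limma. *Gclm* in the libraries labelled Tet2-/- was 0.22, 0.25 and 0.25 in these and 0.030 in the single fit. The interaction of *Nqo1* was 0.22 and 0.34 without 2 or 3 adipocyte libraries. The next transcript of *Nfe2l2* gave 0.24 at baseline, where the gene was -0.41, and -0.78 for IR in WT, where it was 0.43. With 1 library left out, values that changed sign ran from -0.14 to 0.29 (*Nqo1*), -0.10 to 0.13 (*Txnrd1*), -0.25 to 0.064 (*Slc7a11*), -0.012 to 0.15 (*Gsr*) and -0.0056 to 0.038 (*Keap1*) at baseline, -0.096 to 0.019 (*Keap1*) after IR, -0.11 to 0.12 (*Gclm*) for IR in libraries labelled Tet2-/- and -0.10 to 0.0017 (*Keap1*) for the interaction. The cause was not tested.

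With the replicate number as a block, the WT calls were 5 with *Hmox1* added, and the genes called in all went from 376 to 987. Their balance turned from 234 higher and 142 lower to 428 and 559. The block left the members' other calls as they were. In the other comparisons it gave 4 instead of 2 genes in all at baseline, 1093 instead of 996 after IR, 4193 instead of 3974 for IR in libraries labelled Tet2-/- and 1836 instead of 1536 for the interaction. With the block, *Hp* lost its interaction call (7.81, adjusted p = 0.0553).

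Over all genes, DESeq2 called 321 instead of 2 at baseline, 1642 instead of 996 after IR, 978 instead of 376 in WT and 2810 instead of 1536 for the interaction, and the single fit called 1593 after IR and 631 in WT. With 1 library left out the counts were 2 to 10, 294 to 942, 87 to 548 and 697 to 2044. Limma on log2(FPKM + 1) called 595 after IR, 236 in WT and 2256 instead of 3974 in libraries labelled Tet2-/-. Library sizes alone moved the median of all genes from 0.04 to 0.27 for IR in libraries labelled Tet2-/-, with 2860 higher and 1397 lower calls instead of 2078 and 1896, and from 0.10 to 0.24 for the interaction, with 1129 larger and 700 smaller calls instead of 634 and 902. Limma with pseudocounts of 1 and 0.1 gave 1069 and 596, and 1126 and 681, for the interaction, 1440 and 816, and 2569 and 1260, for IR in libraries labelled Tet2-/-, and with 0.1 it gave 476 and 526 instead of 373 and 623 after IR. DESeq2 gave 488 and 490 instead of 234 and 142 in WT. Of the calls of named list genes, limma with 1 or both pseudocounts also ended those of *Ces1g*, *Gstm3*, *Hp*, *Prdx5* and *Sesn1* for IR in libraries labelled Tet2-/- and those of *Gstm1*, *Gstm3* and *Hp* for the interaction, and that of *Tet2*. Library sizes alone and no filter ended the interaction call of *Gstm3* (adjusted p = 0.0777 and 0.0532). Depth was 51007366 counts or more, and *Slc7a11* lay at 0.258 FPKM or less in 9 libraries. What depth limits was not tested.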

Other observations

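The genes whose pattern over the 12 libraries was nearest to that of *Hmox1*, by the mean absolute difference between log2(CPM + 0.5) values centred on each gene's own mean, were *Lif* (0.40), *Socs3* (0.40), *Cd14* (0.41), *Slc34a2* (0.41) and *Ankrd1* (0.42). *Lif* is a cytokine of the interleukin 6 family, *Socs3* is a feedback inhibitor of such cytokines and *Cd14* is a lipopolysaccharide co-receptor. Of the other NRF2 genes, *Srxn1* (0.54) and *Slc7a11* (0.62) were the nearest to *Hmox1*, and *Gclc* (1.78) was the farthest. For *Nqo1* the nearest genes were *Cyp2s1* (0.18), a cytochrome P450, *Cbr1* (0.24), a carbonyl reductase that reduces quinones, *Mcm2* (0.25), a replication helicase subunit, *Ctps* (0.26), CTP synthase, and *A4galt* (0.27), a galactosyltransferase. Among the NRF2 genes, *Txnrd1* (0.36) and *Gsr* (0.46) were the nearest to *Nqo1*, while *Hmox1* was at 1.06. These distances describe 12 libraries of 4 groups that share their treatment, and no test was made on them.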
